A study of Mus musculus with 6 samples.

Results

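The neurogenin, NeuroD and Nhlh factors are a family of neural basic helix-loop-helix (bHLH) transcription factors. Expression was examined for 9 of them, Neurog1, Neurog2, Neurod1, Neurod2, Neurod4, Neurod6, Nhlh1, Nhlh2 and the Olig-related Bhlhe22, in S-phase cells of the embryonic mouse cortex. The genes were chosen with earlier results of these data known. Their probes were found by name alone: every non-control probe whose transcript accession belongs to 1 of these genes in RefSeq was taken. That gave 11 of the 55681 probes on the array and 9 of 19988 named genes. Neurod1 and Nhlh1 had 2 probes each and the other 7 genes had 1.

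Cells came from the cerebral cortex anlage (dorsal telencephalon) of embryos at embryonic day 14.5, on a C57BL/6 background and labelled as strain C57BL/6J. All embryos carried 1 Tis21-GFP knock-in allele, in both groups, inherited from homozygous fathers. Living cells were stained for DNA, those in S phase were sorted, and Tis21-GFP positive cells (3 arrays) were collected apart from Tis21-GFP negative cells (3 arrays). Each replicate drew on 30 hemispheres of 15 pooled embryos and about 200000 sorted cells, and the submitters used the 3 sets they judged best out of 4 experiments, by a rule their labels do not state. Tis21, also called Btg2, is an antiproliferative gene switched on in progenitors that are about to produce neurons, and the GFP protein made from its locus can be inherited by their daughters. A sort on GFP is used to separate neurogenic from proliferative progenitors, and does not by itself remove newborn cells that still hold the protein.

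bHLH proneural factors bind DNA as dimers with E proteins at the hexamer CANNTG, the E-box. In the cortex they are known as a cascade: Neurog2 and Neurog1 act in dividing progenitors, Neurod1 in intermediate progenitors and newborn neurons, and Neurod2, Neurod6 and Bhlhe22 mainly in postmitotic projection neurons. Nhlh1 and Nhlh2 are small bHLH proteins of newly formed neurons. Id proteins sequester the E protein partners, and Hes and Hey repressors, induced by Notch, keep proneural genes down.

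RefSeq promoter windows, from 250 bases before to 50 bases after an annotated start, were at hand for 8 of the 9 genes (9 windows). An E-box (CANNTG, which reads the same on both strands) lay in a window of 7 of the 8 genes, and in 72.3% of all 32851 windows of the same length. The form CAGATG or its complement CATCTG lay in windows of 3 of the 8 genes, Neurod2, Nhlh1 and Nhlh2, and in 17.2% of all windows. The first base of CAGATG stood 118 bases before the start in Neurod2, 203 before it in Nhlh1 and 127 before it in Nhlh2. The Neurog2 window held no E-box, a statement about these letters in this window only. The 3 windows with CAGATG are shown because their genes include both Nhlh paralogs and the NeuroD gene with the smallest difference below, with every E-box in capitals:
Neurod2, GRCm38.p6 chr11:98329596-98329895, minus strand: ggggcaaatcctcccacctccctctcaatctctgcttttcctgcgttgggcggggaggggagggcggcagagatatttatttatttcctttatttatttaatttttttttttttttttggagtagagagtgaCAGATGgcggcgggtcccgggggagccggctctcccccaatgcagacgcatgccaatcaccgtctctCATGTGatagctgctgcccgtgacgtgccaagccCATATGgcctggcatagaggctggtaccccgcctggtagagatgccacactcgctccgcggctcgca
Nhlh1, GRCm38.p6 chr1:172057547-172057846, minus strand: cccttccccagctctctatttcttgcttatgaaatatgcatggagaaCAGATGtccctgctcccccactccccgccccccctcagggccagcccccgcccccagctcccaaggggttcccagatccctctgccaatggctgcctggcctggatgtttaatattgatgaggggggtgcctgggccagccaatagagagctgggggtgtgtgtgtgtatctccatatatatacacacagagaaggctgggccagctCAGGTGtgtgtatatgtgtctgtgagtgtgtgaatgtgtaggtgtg
Nhlh2, GRCm38.p6 chr3:102009895-102010194, plus strand: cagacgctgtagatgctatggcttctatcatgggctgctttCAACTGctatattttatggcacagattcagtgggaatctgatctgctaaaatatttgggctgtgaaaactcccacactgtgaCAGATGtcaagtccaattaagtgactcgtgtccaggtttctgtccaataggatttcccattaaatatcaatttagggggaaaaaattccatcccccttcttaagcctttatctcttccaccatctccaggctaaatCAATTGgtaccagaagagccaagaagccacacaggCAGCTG

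Most of the proneural genes were higher in Tis21-GFP positive S-phase cells. Of the 9 genes, taking for each the probe of highest mean signal, 7 were well above background on all 6 arrays, and all 7 rose (limma, adjusted p under 0.05 over all tested probes). Nhlh1 entered this count through the probe that read brighter on the positive arrays and dimmer on the negative ones. Its other probe, also well above background on all 6 arrays, differed by 0.14 and did not pass. Among the 12246 named genes detected on all 6 arrays 9.36% rose, and among all 13138 tested named genes 9.13% rose and 11.3% fell. The 9 genes were chosen with earlier results known, so their count is no independent evidence of its direction. The log2 differences of the 7, positive minus negative, lay between 1.05 for Neurod2 and 2.64 for Neurod1, with a median of 2.41, against a median of 0.14 and a 95th percentile of 0.78 over named genes detected on all 6 arrays. Neurog1 and Neurod4 were well above background on all 3 positive arrays but not on all negative ones, so they entered the test only through the group in which they were higher, and their results are described without being counted with the 7. Neurod4 passed and Neurog1, at 1.72, did not. With the replicate number as a block the 7 passed, and so did Neurog1 and Neurod4, with the same limit.

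Signals are given below as log2 values relative to the array's 75th percentile, so that 0 is that percentile. They can be compared between arrays for 1 probe, not between probes. Of the 11 probes, 9 had every positive array above every negative array, against 24.6% of all tested probes, and 10 were higher in the positive array of each of the 3 same-numbered pairs, against 35.5%. The first count includes the probe of Neurod4, and the other those of Neurog1 and Neurod4.

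**Figure D1:**
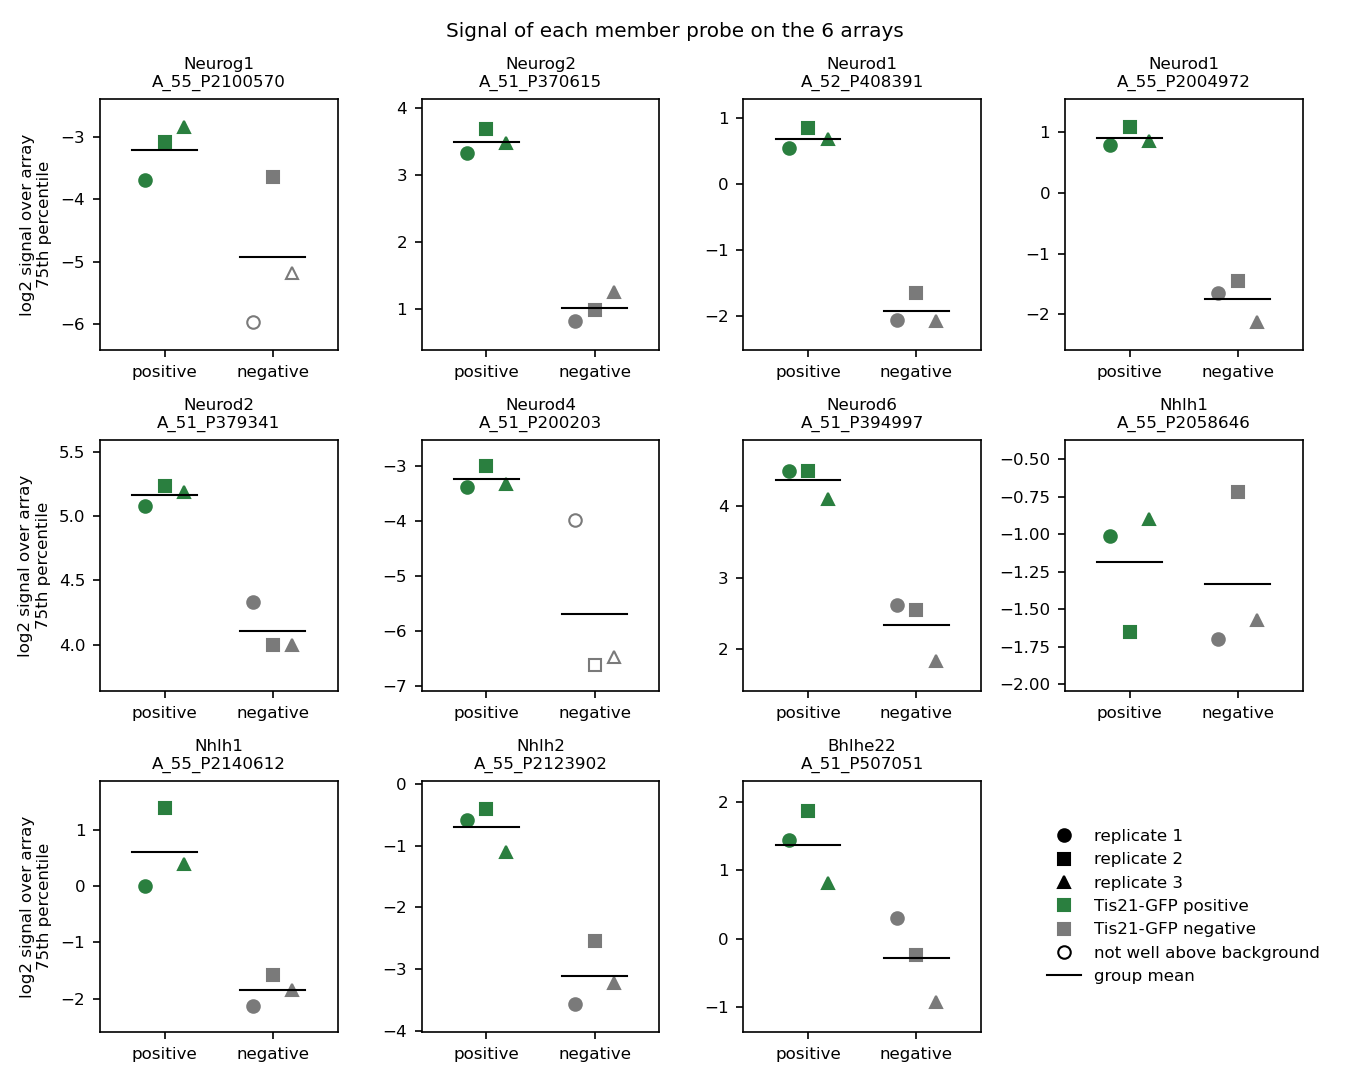
Log2 signal over the array's 75th percentile for each of the 11 member probes on the Tis21-GFP positive (left, green) and negative (right, grey) arrays, with marker shape for the replicate number, open markers where the probe was not well above background, and bars for group means; each panel has its own scale. The groups overlap for Neurog1 and for 1 of the 2 Nhlh1 probes, and are separate in the other 9 panels.

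Neurog2, the main proneural factor of dorsal cortical progenitors, was clearly separated between the groups. Its signal was 3.33, 3.69 and 3.47 on the positive arrays and 0.82, 0.98 and 1.25 on the negative arrays. The lowest positive array lay more than 2 log2 units above the highest negative one. The difference was 2.48 ± 0.17 (SE, n = 3 per group, adjusted p = 0.000517), a 5.59-fold higher signal, and 0.297% of tested named genes had a higher difference.

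Neurog1, its paralog, was close to the detection limit. It read 24.0, 34.7 and 29.6 intensity units on the positive arrays and 5.25, 27.4 and 7.85 on the negative arrays, where only replicate 2 was well above background. That array, at -3.64 on the log2 scale, exceeded positive replicate 1 at -3.69, so the groups overlapped. The difference was 1.72 ± 0.54 with a 95% interval of 0.47 to 2.98 and did not pass (adjusted p = 0.0678). With the replicate number as a block the same difference passed (adjusted p = 0.0324). Without negative replicate 2 it was 2.37 (adjusted p = 0.013), and with normexp background, which adds an offset that compresses dim probes, it was 0.39.

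Neurod1, a target of the neurogenins that marks intermediate progenitors and newborn neurons, differed strongly by both of its probes. Probe A_55_P2004972 read 0.78, 1.08 and 0.85 on the positive arrays and -1.64, -1.45 and -2.13 on the negative arrays. Its difference was 2.64 ± 0.21 (adjusted p = 0.000541), or 6.24-fold. The second probe, A_52_P408391, gave 0.54, 0.84 and 0.68 against -2.06, -1.65 and -2.07 in negative cells, a difference of 2.61 ± 0.17 (adjusted p = 0.000517). The differences of the 2 probes lay 0.03 apart, and neither probe overlapped between groups.

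Neurod4, a NeuroD member known for proneural roles in the retina and midbrain, was well above background on the positive arrays alone. Its probe read 29.9, 36.2 and 21.2 intensity units on the positive arrays and 21.0, 3.46 and 3.21 on the negative arrays, none of which was well above background. The floor of each array was set at the lowest signal of any probe well above background there. With negative signals taken as the higher of this floor and the probe's own signal, Neurod4 was 1.95-fold higher in positive cells. That fold carries no sampling error, and the floor is not the probe's own detection limit. The fitted log2 difference was 2.45 ± 0.64 (adjusted p = 0.0381). Negative replicate 1 lay far above the other two negative arrays, at -3.98 against -6.62 and -6.47 in log2 units. The call was lost without any 1 of the 5 other arrays, with adjusted p between 0.0596 and 0.126, and without negative replicate 1 the difference was 3.30. With normexp background it was 0.69 and passed.

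Neurod2 and Neurod6, which act in the differentiation of cortical projection neurons, both rose in these S-phase sorts. Neurod6 read 4.50, 4.50 and 4.11 on the positive arrays and 2.62, 2.55 and 1.84 on the negative arrays. Its difference was 2.03 ± 0.24 (adjusted p = 0.00177), or 4.08-fold. Neurod2 read 5.08, 5.23 and 5.19 on the positive arrays against 4.33, 4.00 and 4.00 on the negative arrays. The groups were separate, and the mean difference was the smallest of the 7 genes detected on all arrays, at 1.05 ± 0.15 (adjusted p = 0.00399), or 2.08-fold. Over the other scalings and background settings the Neurod2 difference ran from 0.66, with normexp background, to 1.24 with median centring, and it passed in each.

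The 2 probes for Nhlh1 disagreed. Probe A_55_P2140612 read 0.01, 1.39 and 0.40 on the positive arrays and -2.12, -1.57 and -1.85 on the negative arrays, with a difference of 2.44 ± 0.34 (adjusted p = 0.00342). Probe A_55_P2058646 read -1.01, -1.65 and -0.90 on the positive arrays and -1.70, -0.72 and -1.57 on the negative arrays. Its groups overlapped, and the difference of 0.14 ± 0.31 did not pass (adjusted p = 0.774, 95% interval -0.57 to 0.85). Both probes carry the same transcript accession and were well above background on all 6 arrays. Their differences lay 2.30 apart, a span reached by the probes of 6 of 3445 genes with several tested probes (0.174%), whose median span was 0.18. The files do not state where each probe lies in the transcript. The rise of Nhlh1 rests on 1 of its 2 probes, and the mean of both probes differed by 1.29.

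Nhlh2, the paralog known from hypothalamic neurons, had 1 probe. It read -0.58, -0.41 and -1.10 on the positive arrays and -3.57, -2.54 and -3.22 on the negative arrays. All positive arrays stood more than 1 log2 unit above all negative arrays. The difference was 2.41 ± 0.29 (adjusted p = 0.00199), or 5.32-fold, and 1.35 with normexp background.

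Bhlhe22, a repressor that works with Prdm8 in postmitotic cortical neurons, varied more between replicates. It read 1.45, 1.87 and 0.81 on the positive arrays and 0.30, -0.23 and -0.93 on the negative arrays. Positive replicate 3 and negative replicate 3 were the lowest of their groups, and the 3 same-numbered pairs differed by 1.15, 2.10 and 1.74. The difference was 1.66 ± 0.36 (adjusted p = 0.0204), or 3.17-fold. It did not pass without positive replicate 1 (adjusted p = 0.0553), positive replicate 2 (0.054), negative replicate 2 (0.0652) or negative replicate 3 (0.0618), at differences between 1.34 and 1.69, and with the replicate number as a block its adjusted p was 0.00737.

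**Figure D2:**
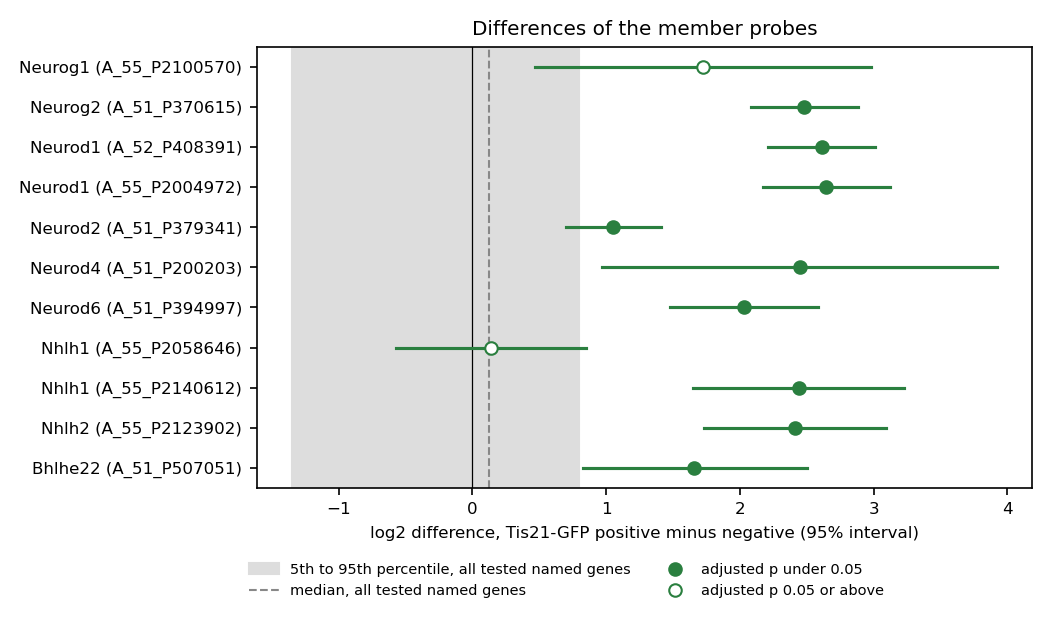
Log2 difference between Tis21-GFP positive and negative cells for each member probe (points, filled where adjusted p is under 0.05) with its 95% interval from the fit, beside the 5th to 95th percentile (-1.35 to 0.80, grey band) and the median (0.12, dashed line) of all tested named genes. All 9 filled points lie to the right of the band.

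Whether paralogs differed in their response was asked within arrays, where the array scaling cancels, for 5 pairs. The log2 ratio of Neurod1 over Neurod2 was 1.59 ± 0.21 higher in positive than in negative cells (SE, n = 3 per group), and that of Neurod6 over Neurod2 was 0.98 ± 0.25 higher. In both pairs all 3 positive arrays lay above all 3 negative arrays (exact permutation test, 2-sided, p = 0.1, the smallest that 3 against 3 arrays allow, adjusted p = 0.25 over the 5 pairs). For Nhlh1 over Nhlh2 the groups overlapped and the ratio differed by 0.03 ± 0.39 (exact p = 0.9), and by -1.12 with the mean of both Nhlh1 probes. No main difference is given for the pairs with Neurog1 or Neurod4, whose negative signals were mostly at background. For Neurod1 over Neurod4 only the range with 1 array left out is given, with the processing alternatives. None of these tests could reach a p under 0.05.

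Likeness of expression was measured as the root mean square distance between mean-centred log2 profiles over the 6 arrays, across 13129 other named genes. The nearest profile to Neurog2 was that of Dll1, the Notch ligand gene that neurogenins activate, at a distance of 0.141, followed by Plcxd2 (0.145) and Elavl2 (0.16), an RNA-binding protein gene of neurons. Neurod1 was nearest to Ucma (0.126), Clvs1 (0.126) and Prmt8 (0.142). Neurod2 had the closest neighbours of all 9 genes, Celsr3 (0.063), Dleu7 (0.0678) and Tmem108 (0.0871). Neurod6 was nearest to Vxn (0.132), Osbpl5 (0.147) and Penk (0.153), and Bhlhe22 to Cxcl12 (0.208), Dok4 (0.24) and Trp53inp1 (0.28).

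Nhlh1 was nearest to Optc (0.208), Shf (0.24) and Ppp1r14a (0.246), and Nhlh2 to Sypl2 (0.163), Cckar (0.171) and Ppp1r14a (0.214). The 2 dim genes had distant neighbours: Neurog1 lay 0.401 from Oog2, 0.49 from 4931414P19Rik and 0.52 from Spsb1, and Neurod4 lay 0.638 from Cpxm2, 0.658 from Itprid1 and 0.686 from AA387883. Among the members themselves the closest profiles were Neurod6 and Bhlhe22 (0.306) and Neurog2 and Neurod1 (0.325), and the farthest were Neurog1 and Neurod4 (1.52). With only 6 arrays in 2 groups, these distances mostly follow the group difference and the replicates. Of the 27 neighbours, 17 stayed the nearest with quantile normalization, 17 with the authors' processed values and 8 with normexp background.

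Genes reported as targets of neurogenin or NeuroD factors were higher in the same cells. Of 24 tested genes on a list of 25, 23 rose and 0 fell, while 9.13% of all tested named genes rose. The median log2 difference on the list was 2.05. Prox1, among the 23, was tested only through the positive group, where it was higher. Eomes, the intermediate progenitor factor, rose by 3.42 ± 0.25, the vesicular glutamate transporter gene Slc17a6 by 3.19 ± 0.21, the Notch ligand gene Dll3 by 2.62 ± 0.20, Elavl2 by 2.34 ± 0.14 and Hes6, which antagonises Hes1, by 2.08 ± 0.15. Their adjusted p lay between 0.000498 and 0.000524, and each passed under all 18 alternatives. The tested gene that did not pass was the Cdk5 activator gene Cdk5r1, at 0.25 ± 0.19 (adjusted p = 0.406). This list was drawn up with earlier results of these data known, so it is no independent evidence of its direction, and it holds Btg2, whose reporter was sorted.

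The E protein genes, whose products pair with every member, differed by less. Tcf12 was at 0.47 ± 0.15 (adjusted p = 0.0706), Tcf3 at 0.46 ± 0.21 (adjusted p = 0.165) and Tcf4 at 0.42 ± 0.20 (adjusted p = 0.178), so 0 of 3 passed. Tcf12 passed under 3 of the 18 alternatives and Tcf3 under 1.

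Of 8 tested inhibitor genes of the Id, Hes and Hey families, 4 fell, 0 rose and 4 did not pass, with a median of -0.71. Among all tested named genes 11.3% fell and 9.13% rose. The 4 inhibitor genes that fell were the Notch effector Hes1 at -2.18 ± 0.45 (adjusted p = 0.0174), Id4 at -1.09 ± 0.20 (adjusted p = 0.0103), Id1 at -0.73 ± 0.20 (adjusted p = 0.0417) and the Notch effector Hes5 at -0.68 ± 0.18 (adjusted p = 0.0391). Id2, which did not pass, was at 0.55 ± 0.20 (adjusted p = 0.103), with every positive array above every negative one. Hes1 passed under 14 of the 18 alternatives, Id4 under 17, and Id1 and Hes5 under 8 each. With the replicate number as a block neither passed (adjusted p = 0.0724 for Id1 and 0.063 for Hes5), so that 2 fell and 1 rose. The number that fell was 0 without negative replicate 1, 1 without negative replicate 2 and at most 5 under the other alternatives.

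Other neural bHLH factors went both ways, and 9 of the 16 listed failed the filter. Ptf1a, known from GABAergic neurons of hindbrain and spinal cord, was 2.15-fold higher against the array floors used for Neurod4 (adjusted p = 0.00066 from the fit). It was well above background on no negative array. Bhlhe40, a stress and clock repressor, fell, at -1.91 ± 0.43 (adjusted p = 0.0234). Tal1, a blood and endothelial factor, was 2.05-fold lower against the floors of the positive arrays (adjusted p = 0.0038 from the fit). It was well above background on no positive array. Bhlhe40 passed under 12 of 18 alternatives, and Tal1 did not pass with normexp background. Among 9 cofactor genes 3 rose and 2 fell, against 9.13% and 11.3% of all tested named genes. The corepressor genes Cbfa2t3 and Cbfa2t2, also on the target list, rose by 2.07 ± 0.17 and 1.57 ± 0.16, and the LIM-binding gene Ldb1 by 0.68 ± 0.17. Ldb2 fell, at -1.80 ± 0.21, as did the LIM-only gene Lmo1, at -0.53 ± 0.15. Ldb1 passed under 6 and Lmo1 under 8 of the 18 alternatives, and with the replicate number as a block their adjusted p was 0.0502 and 0.0646. Prdm8, the partner of Bhlhe22, was at 0.47 ± 0.21 (adjusted p = 0.167).

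Of 12 genes listed as upstream regulators, 5 rose and 3 fell, against 9.13% and 11.3% of all tested named genes. Rest, the repressor of neuronal genes, fell, at -2.09 ± 0.20 (adjusted p = 0.000891), as did Gli3, a dorsal patterning factor, at -1.04 ± 0.14. The cortical homeobox gene Emx1 rose by 1.12 ± 0.21, Rbpj, the DNA-binding partner of Notch, by 0.69 ± 0.14, and Trp53inp1, a p53-induced gene, by 1.52 ± 0.24. Rbpj passed under 14 and Emx1 under 16 of the 18 alternatives.

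**Figure D3:**
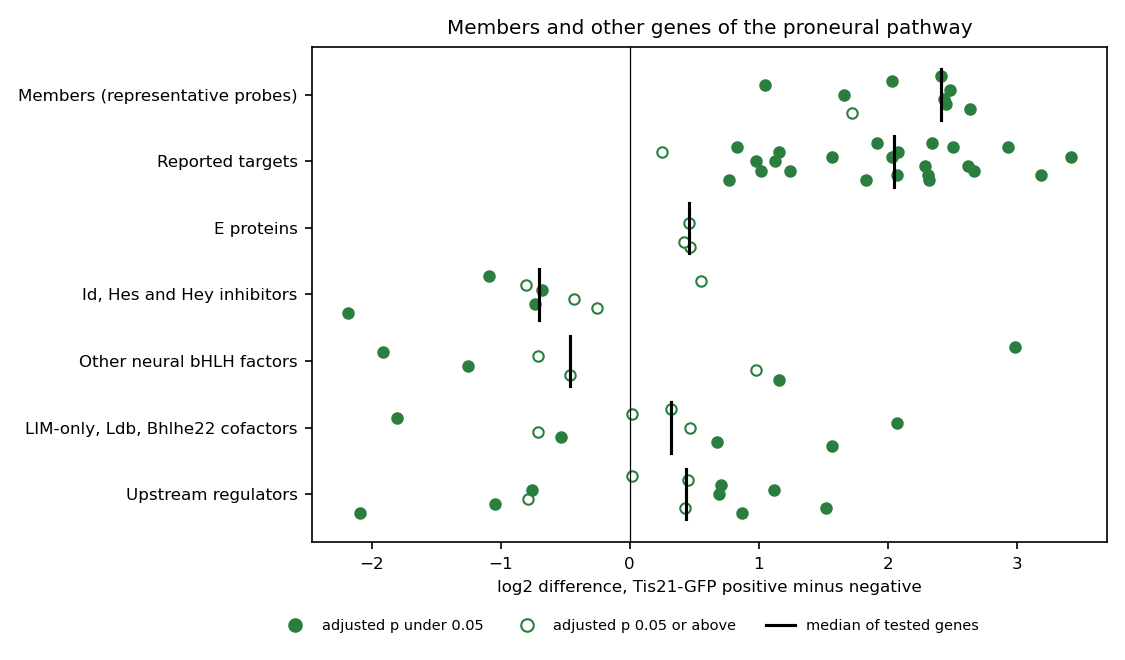
Log2 difference between Tis21-GFP positive and negative cells for the tested representative probes of the 9 members and of 6 lists of other genes (points, filled where adjusted p is under 0.05), with the median of each list as a bar. The medians are 2.41 for the 9 members, with Neurog1 and Neurod4 at their fitted values, 2.05 for reported targets, 0.46 for E proteins, -0.71 for inhibitors, -0.46 for other neural bHLH factors, 0.32 for cofactors and 0.44 for upstream regulators.

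Markers of other cells were read beside these results. Their counts stand against 9.13% of all tested named genes that rose and 11.3% that fell. Of 12 genes of postmitotic cortical neurons, all detected in both groups, 3 rose and 5 fell, and their summed signal ran from 145 to 175 times the array's 75th percentile in positive cells and from 114 to 151 times in negative cells. Such sums are weighted to the brightest probes. Examples chosen after their values were seen are Rbfox3, at 2.15 ± 0.17, and the axonal and synaptic genes Stmn2, Mapt and Syt1, at -1.56 ± 0.27, -1.60 ± 0.22 and -1.60 ± 0.36. Syt1 passed under 15 of the 18 alternatives. Of 8 Cajal-Retzius genes 6 were tested and 2 rose, Ebf2 at 3.05 ± 0.37 and Ebf3 at 2.35 ± 0.43. Reln, at -1.38 ± 0.50, did not pass and was well above background on 1 positive and all 3 negative arrays. Calb2 was well above background on none. Summed Cajal-Retzius signal was 3.05 to 5.09 in positive and 1.39 to 2.31 in negative cells, and without Ebf2 and Ebf3 it was 0.811 to 1.05 in positive and 1.08 to 1.59 in negative cells. Of 10 interneuron genes 7 were tested, 0 rose and 1, Gad1, fell (not with normexp background). Gad1 was tested only through the negative group. The sums were 9.71 to 11.4 in positive and 10.3 to 14.5 in negative cells. Nkx2-1 and Dlx6 were well above background on no array. The part of these cells in the members' differences was not tested, and in sorted pools fewer cells of a type and less RNA per cell cannot be told apart.

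Microglia genes fell in 10 of 10 tested, against 11.3% of all tested named genes. Their sums were 4.34 to 7.89 in positive and 14.4 to 18.9 in negative cells. Cx3cr1 and P2ry12 were tested only through the negative group, and P2ry12 was well above background on no positive array. Meningeal and mesenchymal genes fell in 7 of 7, with sums of 0.636 to 0.928 in positive and 4.61 to 9.11 in negative cells. Col3a1, Lum and Foxc1 were well above background on no positive array. Col1a1, Col3a1, Lum and Nid1 were tested only through the negative group, where they were higher. Endothelial and pericyte genes fell in 4 of 8 and rose in 0, with sums of 9.57 to 10.6 in positive and 8.32 to 9.52 in negative cells. Without Kdr, at 0.45 ± 0.15 and not passing, the sums were 0.405 to 0.663 in positive and 1.65 to 2.38 in negative cells. Cdh5, Tek, Pdgfrb, Rgs5 and Abcc9 were well above background on no positive array. Pdgfrb, Rgs5 and Abcc9, which fell, were tested only through the negative group, as was Flt1, which did not pass. Of 10 genes of dorsal telencephalic progenitors, all detected on arrays of both groups, 2 rose and 5 fell, with sums of 331 to 372 in positive and 338 to 363 in negative cells. 

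Btg2, the sorted gene, read 1.32, 1.84 and 1.67 on the positive arrays and 0.67, 0.91 and 0.94 on the negative arrays, with a difference of 0.77 ± 0.18 (adjusted p = 0.0258) that passed under 11 of the 18 alternatives. The share of probes well above background was 51.2% to 52.6% per positive array, against 52.7% to 56.2% per negative array. Over all 28928 tested probes 2174 rose (7.52%) and 2592 fell (8.96%). Rises made up 45.6% of calls, against 65.2% with median centring and 24.8% with a percentile set on the probes that all 6 arrays detected. The median of all tested named genes was 0.30 and -0.06 in those 2 settings, a shift small beside the members' differences.

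**Figure D4:**
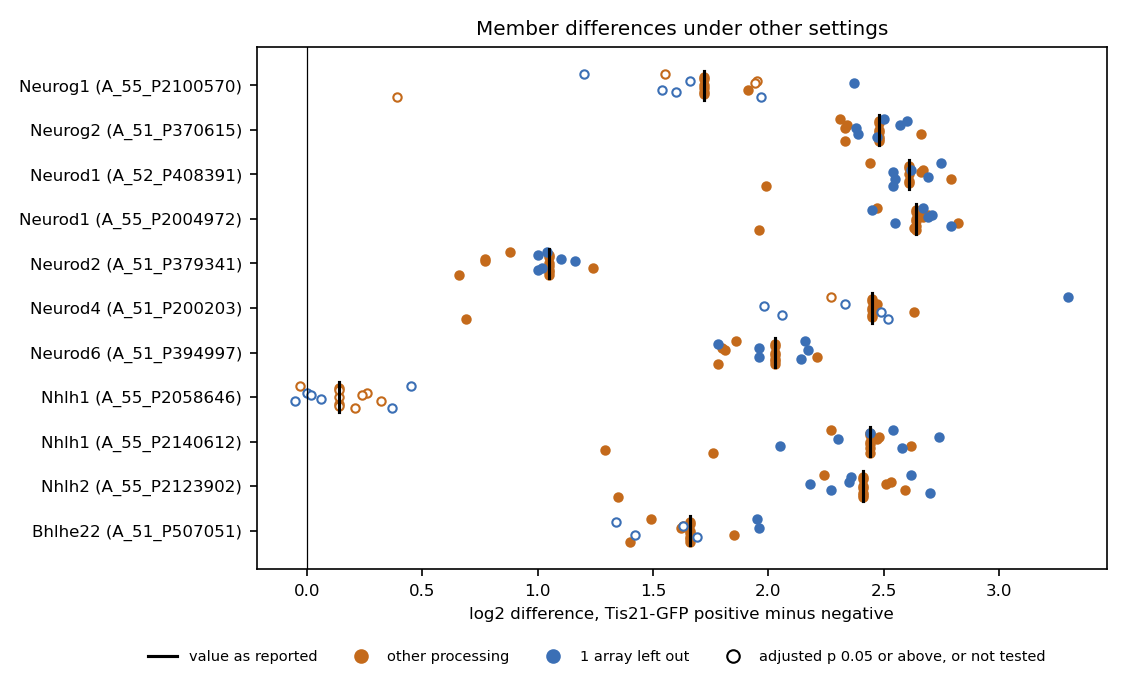
Log2 difference between Tis21-GFP positive and negative cells of each member probe as reported (black bar), under other processing (orange) and with 1 array left out (blue), filled where adjusted p is under 0.05. Apart from Nhlh1 probe A_55_P2058646, which ran from -0.05 to 0.45, every value lies above 0.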

How the data were processed

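Expression was measured on 6 1-colour Agilent arrays from 50 ng total RNA per sample, labelled with Cy3, per the labels' protocols. Spot intensity in the deposited scanner output comes from the Agilent Feature Extraction software (10.7.1.1, per the file headers), corrected for background within an array and not scaled across arrays. A processed table deposited by the authors is on a log2 scale. Its 6 columns share a median of 4.661 and equal quantiles, and correlate with log2 scanner intensity at 0.9995 or above. They were therefore read from the values as quantile normalized and uncentred, since neither the labels nor the headers state the steps. Depth has no meaning on arrays, and their number limits the precision.

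Control spots and spots marked as outliers (118 to 191 per array) were left out, no spot was saturated (0), and each array's 75th percentile was subtracted from its log2 processed intensity. The test covered the 28928 probes that all 3 arrays of either group read as well above background. It used limma 3.58.1 in R 4.3.3 with a group term alone, p-values adjusted by Benjamini-Hochberg over these probes, and a threshold of 0.05. For genes with several probes the one of highest mean signal was taken. Of 55681 probes, 26370 were named by accession through a RefSeq table (GRCm38.p6). The fit was tested on simulated data. Alternatives were normexp background on the median spot signal (offset 50), other scalings, the authors' values, other filters and probe rules, a variance trend, blocks, and leaving out each array.

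Arrays of the same number had deviations from their group means that correlated at 0.17, 0.12 and 0.35, and other pairs at 0.07 or below, so the numbers were taken to pair samples. Both arrays of replicate 1 lay on array row 1 and those of replicates 2 and 3 on row 2, so number and row are partly confounded. Deviations from a group mean sum to 0, so these correlations are not independent of each other. The main fit has no block. All 6 arrays shared 1 slide and 1 scan. The members, lists and alternatives were chosen with earlier results of these data known. Named are all 9 members, up to 5 called genes of each list by lowest adjusted p (or up to 2 with the largest statistic), every gene of a list of 3, the 3 nearest profiles of each member and Btg2. Prdm8, Cdk5r1 and the cell markers were chosen after their values were seen. P-values of the main fit measure the spread between the 3 replicates of each group, each from pooled embryos. Neither they nor the exact tests of the paralog pairs take account of the pairing by replicate number. Protein sequences were not used here. A result of 1 listed gene is not reported here.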

Additional observations from a re-analysis of the deposited data

How the results depend on the processing

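Of the 9 members, between 6 and 9 rose and 0 fell under the 18 alternatives. These counts include Neurog1 and Neurod4 wherever they passed, though the main filter admitted them only through the positive group. Neurog2, both Neurod1 probes, Neurod2, Neurod6, Nhlh1 probe A_55_P2140612 and Nhlh2 passed in every alternative that tested them. Neurog1 passed with median centring (1.91) and, at 1.72, with 1 probe per named gene, averaged probes, a variance trend, array row as a block and the replicate block. Neurod4 did not pass with a percentile set on the probes that all 6 arrays detected (2.27) or with no filter on dim probes (2.45), and Bhlhe22 did not pass with no filter (1.66). Leaving out each array in turn gave 1.20 to 2.37 for Neurog1, 1.98 to 3.30 for Neurod4, 1.34 to 1.96 for Bhlhe22 and -0.05 to 0.45 for Nhlh1 probe A_55_P2058646, which stood at -0.03 with a percentile set on the probes that all 6 arrays detected. The replicate block changed no other member call, and of the list genes named only those of Id1, Hes5, Ldb1 and Lmo1. With it the probes that rose numbered 2271 and those that fell 2994.

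The number of probes that rose was 3632 with median centring, 1092 with a percentile set on the probes that all 6 arrays detected, 3424 with a variance trend and 751 with no filter, where 1518 fell. With 1 array left out it ran from 737 to 1979, and the number that fell from 1350 to 2772. The Nhlh1 over Nhlh2 ratio ran from -0.22 to 0.38 and the Neurod1 over Neurod4 ratio from -0.61 to 0.81 with 1 array left out, and the first was -1.12 when a gene's probes were averaged. Cdk5r1 stood at -0.01 after quantile normalization and in the authors' table, and the median of other neural bHLH factors ran from -0.65 to 0.22 with 1 array left out, above 0 without positive replicate 1. Dim probes limit what can be said of Neurog1 and Neurod4, and the ratio with Neurod4 rests on negative signals at background. The cause of these changes was not tested.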
